A study of Mus musculus with 4 samples.

Results

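The genes described here build and cross-link elastic fibres: the lysyl oxidase family (Lox, Loxl1, Loxl2, Loxl3 and Loxl4), elastin (Eln), the fibrillins Fbn1 and Fbn2, fibulin-5 (Fbln5) and Emilin1. They were chosen by symbol, 10 genes out of the 24216 rows of the authors' deposited table, and each had 1 row that the authors tested. The samples were 4 RNA-seq libraries from XLacZ4 mice, 2 of molar pulp and 2 of incisor pulp, made from cells that cleaved FDG, a fluorogenic substrate of beta-galactosidase, and were collected by flow sorting. In XLacZ4 mice the beta-galactosidase reporter is active in pericytes and vascular smooth muscle cells, and FDG can also be cleaved by a cell's own beta-galactosidase. Both tissues carried the same reporter and no treatment is named. The labels used here do not say how old the mice were, of which sex, or whether both libraries of a tissue came from different mice. The q values below therefore speak for these libraries, whose spread may be technical.

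An elastic fibre is a core of cross-linked elastin laid down on a bundle of fibrillin microfibrils. Fibulins and emilins bring elastin to the microfibril, and lysyl oxidases, copper enzymes that oxidise lysine side chains, start the cross-links that make elastin and fibrillar collagen insoluble. Mural cells and fibroblasts make these proteins in vessel walls, and in tooth tissues fibrillin microfibrils free of elastin, named oxytalan fibres, run through the periodontal ligament.

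The deposited values are FPKM (fragments per kilobase of transcript, scaled to sequencing depth), with the libraries of each tissue already combined into 1 value. No SD or n can therefore be given, and the read depth is unknown. The authors' q, their adjusted p-value, is the only measure of error, and a gene is named called where it lies under 0.05. Folds are molar over incisor on the log2 scale, without a pseudocount. The median log2 fold of the 15875 tested rows above 0 in both tissues was 0.21, and the molar FPKM values summed to more than the incisor values by 0.60 on the log2 scale, so that a fold of 0 lies slightly toward incisor relative to most genes. In a bulk sample, fewer cells of a type and less RNA per cell cannot be told apart.

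None of the 10 genes was called at q under 0.05, a limit set here, at which 16.2% of all tested rows were called, 11.9% toward molar and 4.28% toward incisor. The lowest q of the deposited table among them was 0.115, for Loxl2, and the next was 0.252, for Fbln5. Also, none carried the authors' own mark of significance, which reached up to q = 0.0600 and was on 17.3% of tested rows, and none had q under 0.01, as 11.1% did. By the unadjusted p of the deposited table under 0.05, which 27.0% of tested rows met, Loxl2 alone among them would pass. A count of 0 among 10 genes is close to that background and is not read as particular to them.

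For 7 of the 10 genes the log2 fold of the deposited table was under 0.5 in size, the largest of these being 0.41 for Eln. The incisor value was the higher one in 8 of the 10 genes, beside 45.5% of the 13198 tested rows that reached 1 FPKM in either tissue. The exceptions were Loxl1 and Emilin1. Loxl4, one of the 8, did not reach 1 FPKM in either tissue, whereas the other 9 genes did. After the median of all genes was subtracted, Loxl1 changed sides and 9 genes had the higher incisor value, and with equal FPKM totals all 10 did. Both scalings move every fold toward incisor, so the other 8 could not change sides.

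**Figure D1:**
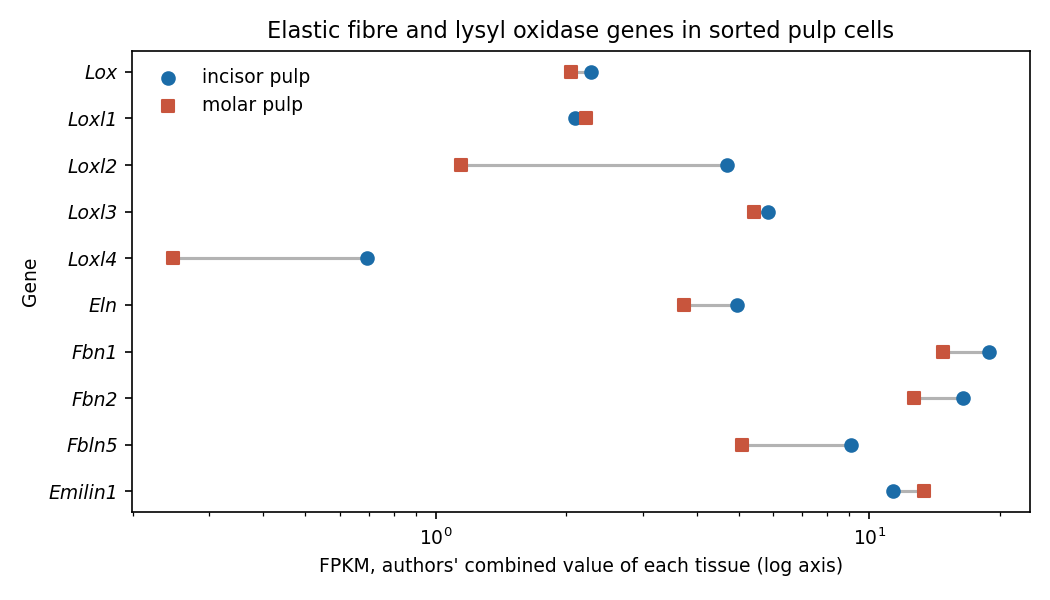
FPKM of each gene (x axis, log scale) in incisor pulp (blue circles) and molar pulp (red squares), 1 combined value per tissue with no error available. The lines between the symbols are short for most genes, and are longest for Loxl2 (4.69 against 1.14) and Loxl4 (0.692 against 0.248).

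Fibrillins form the microfibril on which elastin is deposited. Fbn1, the main fibrillin of adult tissues (chromosome 2, 125300594 to 125506438 on mm10, minus strand), had an FPKM of 18.9 in incisor and 14.8 in molar, the highest of the 10 genes in both tissues. Its log2 fold was -0.35 with q = 0.386 in the deposited table. Fbn2, the fibrillin most active in development (chromosome 18, 58008623 to 58209926, minus strand), stood at 16.5 in incisor and 12.7 in molar, a log2 fold of -0.37 with q = 0.372 in that table. The fibrillins lay above most of the transcriptome, at percentiles 83.9 and 79.4 of tested rows for Fbn1. Their ratio was 1.15 in incisor and 1.16 in molar, a measure that does not depend on how the tissues were scaled.

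Elastin itself was less abundant than the fibrillins, on the per-length FPKM scale. Eln (chromosome 5, 134702595 to 134747323, minus strand) stood at 4.96 in incisor and 3.73 in molar, with a log2 fold of -0.41 and q = 0.449 in the deposited table. Fbn1 exceeded it by a factor of 3.80 in incisor and 3.96 in molar. By these values fibrillin outweighed elastin by about as much in one tissue as in the other, with no replicate error to set beside the ratios. The molar value of Eln lay below 3.79 FPKM, the molar background level described below, so the molar ratio is uncertain.

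Fbln5 and Emilin1 join elastin to the microfibril. Fbln5, which binds elastin and lysyl oxidases and is needed for fibre assembly (chromosome 12, 101746565 to 101819119, minus strand), stood at 9.09 in incisor and 5.09 in molar. It had the second lowest q of the 10 genes in the deposited table, 0.252, with a log2 fold of -0.84. Emilin1, a glycoprotein at the border of elastin and microfibril that also restrains TGF-beta maturation (chromosome 5, 30913786 to 30921273, plus strand), stood at 11.4 in incisor and 13.4 in molar. Its log2 fold in the deposited table was 0.23 (q = 0.547), 0.03 after median centring and -0.36 with equal totals. By FPKM, Emilin1 ranked 3 of the 10 in incisor and 2 in molar, and Fbln5 ranked 4 in incisor and 5 in molar.

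Among the lysyl oxidases, Loxl3 had the highest FPKM in both tissues and Loxl4 the lowest. Lox, the founding enzyme, which acts on both elastin and collagen (chromosome 18, 52516060 to 52529867, minus strand), had 2.28 FPKM in incisor and 2.05 in molar, with q = 0.705 in the deposited table. Loxl1, the family member tied most closely to elastin renewal (chromosome 9, 58287723 to 58313212, minus strand), stood at 2.09 and 2.22, with q = 0.866 in that table. At log2 folds of -0.16 for Lox and 0.09 for Loxl1, the tissues differed by less than in any other of the 10 genes except Loxl3.

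Loxl3, a cross-linking enzyme of developing palate and spine (chromosome 6, 83034224 to 83057682, plus strand), stood at 5.84 in incisor and 5.43 in molar, a log2 fold of -0.11 with q = 0.803 in the deposited table. That interval is not Loxl3 alone. The rows of Htra2 and Aup1 have the same start and end, and 13.1% of the exonic bases of the Loxl3 transcript used here overlap exons of Htra2 on the other strand (GENCODE M21). Aup1, called higher in molar (q = 0.000664 in the deposited table), had 8.17 FPKM in incisor and 242 in molar. The values of Htra2, which did not pass (q = 0.0610 in that table), were 4.11 and 43.2. How the authors' program divided the fragments of this locus is not given, so the value of Loxl3 is uncertain.

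Loxl2, a family member known for acting on collagen IV of basement membranes (chromosome 14, 69609476 to 69695834, plus strand), showed the largest difference of the 10 genes. Its FPKM was 4.69 in incisor and 1.14 in molar, a log2 fold of -2.03 with q = 0.115 in the deposited table. It did not pass the threshold. Of 2711 other tested rows whose mean FPKM lay within 1.5-fold of that of Loxl2, 8.56% were called, 46 of them with a smaller fold than Loxl2, and 261 rows with a fold at least as large were not called. Its value is uncertain for another reason: 71.4% of the 32-base words of its transcript also occur in Gm21451, annotated in GENCODE M21 as an unprocessed pseudogene. The deposited table has no row under that symbol, and how fragments that fit both were assigned is not given.

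Loxl4, another matrix cross-linking enzyme (chromosome 19, 42592279 to 42612806, minus strand), was the only gene under 1 FPKM in both tissues, at 0.692 in incisor and 0.248 in molar. The log2 fold of -1.48 had q = 0.398 in the deposited table, and it was -0.44 with a pseudocount of 1. Rows as low as Loxl4 were seldom called, 4.17% of 1509, and the smallest fold called among them was 3.90.

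**Figure D2:**
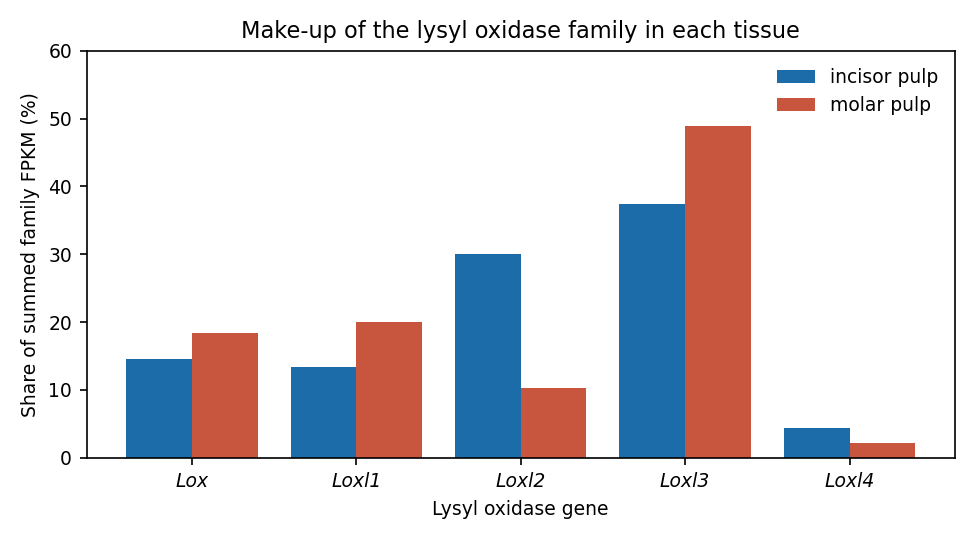
Share of each gene in the summed FPKM of the 5 lysyl oxidases (y axis, %) in incisor pulp (blue) and molar pulp (red), with no error available. The share of Loxl2 is 30.1% in incisor and 10.3% in molar, and Loxl3 has the tallest bar in both tissues. The molar values of all but Loxl3 lie at or below the 99th percentile of the molar background described below, and the value of Loxl3 is uncertain.

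The summed FPKM of the lysyl oxidases was 15.6 in incisor and 11.1 in molar. Loxl3 made up 37.4% of the sum in incisor and 49.0% in molar, and Loxl2 ranked 2 of the 5 in incisor and 4 in molar. With Loxl2 left out, Loxl3 held 53.5% in incisor and 54.6% in molar, Lox 20.9% and 20.6%, and Loxl1 19.2% and 22.3%. Loxl4 went the other way, at 4.44% and 2.23% of the whole sum and at 6.35% and 2.49% without Loxl2. The molar values of Lox, Loxl1, Loxl2 and Loxl4 lay at or below 3.79 FPKM, the 99th percentile of the molar background described below. The value of Loxl3 is uncertain as well, so the molar shares may not be those of the family.

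The size of a difference that could be called depended on the level. Among rows with a mean FPKM within 1.5-fold of that of Fbn1, 34.5% of 1736 were called and the smallest called fold was 2.30. Around Eln 11.8% of 2744 rows were called, with a smallest called fold of 2.42, and around Lox 7.03% of 2562, with 2.68. For each of the 10 genes but Loxl2, no other row of like level was called with a fold as small. After Loxl2 and Loxl4 the largest difference was that of Fbln5, at 1.78-fold.

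Low values carried a higher background in molar than in incisor. As genes that pulp is not known to express, 1478 olfactory, vomeronasal, trace amine and taste receptor genes were taken, with their values already known. Above 0 in molar were 83.2% of them, against 3.45% in incisor. Their molar values had a median of 0.116 FPKM and a 99th percentile of 3.79 FPKM. In incisor the median was 0 and the 99th percentile 0.136 FPKM. The molar values of Lox, Loxl1, Loxl2, Loxl4 and Eln lay at or below that molar 99th percentile, though above the molar median. No incisor value of the 10 genes lay below the incisor 99th percentile. The part of this background in the results was not tested.

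**Figure D3:**
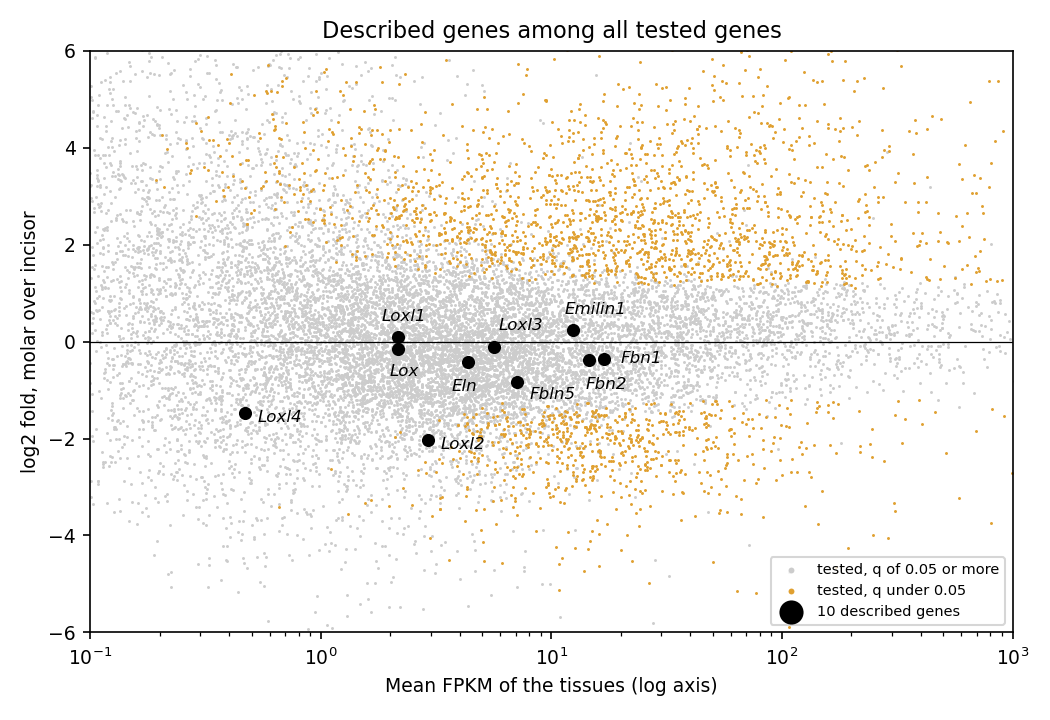
log2 fold of molar over incisor (y axis) against the mean FPKM of both tissues (x axis, log scale) for tested rows above 0 in both tissues, with called rows in orange and the 10 genes in black. The axes leave out 539 of 15875 rows. All 10 genes but Loxl2 sit in the grey band of rows that were not called, and Loxl2, at -2.03, lies beside called rows of like level.

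Other components of the microfibril and its fibulins were called in both directions. Of the 22 genes of that list, all tested, 16 were not called, 4 were called with the higher value in molar and 2 with the higher value in incisor, beside 11.9% and 4.28% of all tested rows. A list of this size allows nothing particular to be read from those counts. The list holds 5 of the 10 genes above. Its median log2((molar FPKM + 1) / (incisor FPKM + 1)) was -0.13 over the 21 genes at 1 FPKM or more, beside 0.14 over all 13198 such rows. Without the 5 described genes the median turned to 0.03 over the other 16.

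Higher in incisor were Mfap4, a microfibril-associated protein that binds elastin and fibrillin, at 1085 against 300.3 (3.61-fold, q = 0.00124 in the deposited table), and Fbln2, a fibulin of vessel walls and basement membranes, at 96.1 against 19.2 (log2 fold -2.32, q = 0.000664). Higher in molar was Fbln7, a fibulin first described in teeth, at 22.6 against 1.21 (18.7-fold, q = 0.000664 in the deposited table). Ltbp3 and Ltbp1, which hold latent TGF-beta in the matrix, were higher in molar too, at 9.12 against 1.496 (q = 0.00176) and 4.85 against 1.70 (q = 0.0384 in the deposited table). Mmrn2, an endothelial relative of the emilins, stood at 3.06 in molar and 0.860 in incisor (q = 0.0323 in the deposited table), a molar value within the range of the receptor genes above.

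Fibulins that were not called, and Mfap2, are named for their levels, after the values were seen. Mfap2, which coats fibrillin microfibrils, had an FPKM of 1238 in incisor and 1171 in molar (q = 0.7999 in the deposited table), 65.6 and 79.3 times that of Fbn1. Mfap4 stood at 57.5 times Fbn1 in incisor and 20.3 times in molar. Efemp2, fibulin-4, which brings lysyl oxidase to elastin, stood at 153 in incisor and 271 in molar (q = 0.170 in the deposited table). Efemp1, fibulin-3, stood at 12.7 and 2.76 (q = 0.0707), a molar value within the range of the receptor genes above. The ratio of Efemp2 to Fbln5 was 16.9 in incisor and 53.3 in molar. Whether the folds of these genes differ from one another was not tested, since combined values allow no interaction test.

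**Figure D4:**
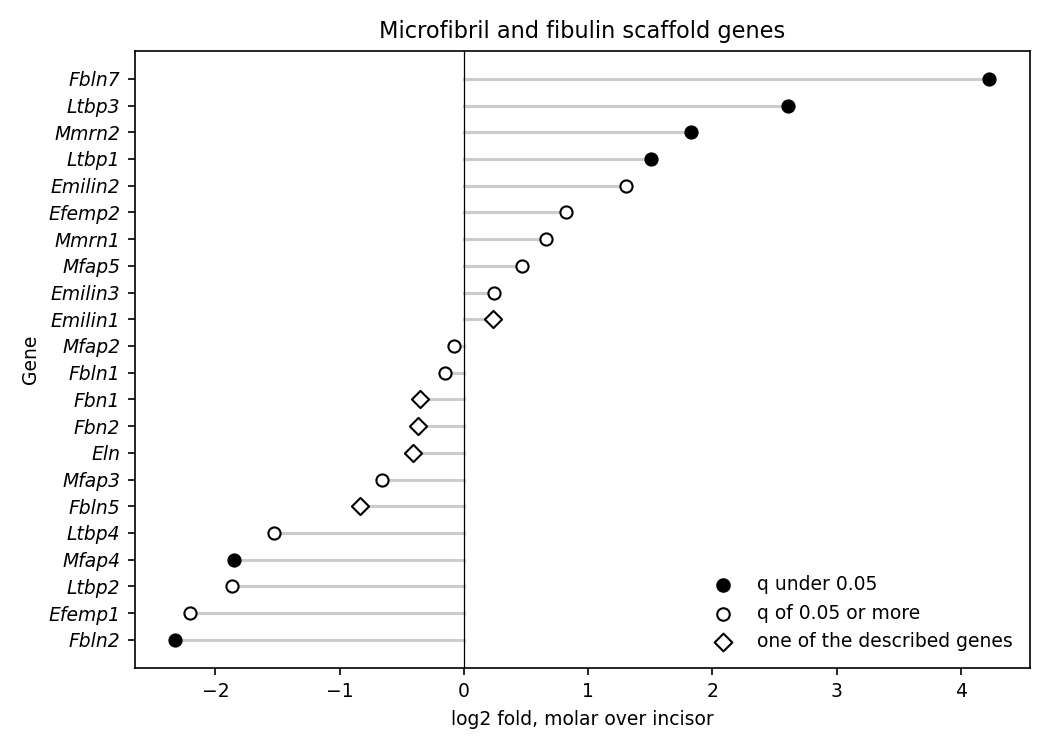
log2 fold of molar over incisor (x axis) for the 22 microfibril and fibulin genes, sorted by fold, with filled symbols for q under 0.05 and diamonds for those among the 10 described genes. The 5 diamonds are open and lie between Emilin1 at 0.23 and Fbln5 at -0.84. Called genes lie farther out on both sides, and so do some genes that were not called, such as Efemp1 at -2.20 and Emilin2 at 1.31.

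Of 13 tested genes that activate lysyl oxidases or supply their copper, 1 was called, higher in incisor, beside 16.2% called in either direction and 4.28% toward incisor over all tested rows. The median was -0.72 over 10 genes, beside 0.14 over all rows. The list holds 1 of the 10 described genes, Fbln5, and without it the median was -0.71 over 9 genes. Efemp2 also stands in the microfibril and fibulin list. The called gene was Postn, a matricellular protein that helps activate lysyl oxidase and is abundant in periodontal ligament, at 83.1 in incisor and 18.8 in molar (q = 0.000664 in the deposited table). Bmp1, the protease that cuts the Lox propeptide, stood at 27.1 and 15.8 (q = 0.252 in the deposited table). Atp7a, the pump that loads copper onto secreted enzymes, stood at 3.76 and 1.71 (q = 0.187), a molar value within the range of the receptor genes above. Of the other copper genes, Atox1 was higher in molar, at 636 in incisor and 737 in molar (q = 0.523 in the deposited table). Slc31a1 stood at 46.9 and 38.2 (q = 0.434).

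Of 7 collagen chains that lysyl oxidases cross-link, none was called, a count close to the 16.2% of all tested rows. Col1a1 stood at 316 in incisor and 154 in molar (q = 0.0778 in the deposited table) and Col3a1 at 83.5 and 150 (q = 0.204), and the median over the 7 was -0.18. Per unit of Lox, Col1a1 was at 138 in incisor and 75.1 in molar, where the value of Lox lies within the range of the receptor genes above.

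Among 15 tested genes of elastic fibre turnover, 3 were called, with the higher value in molar, beside 11.9% of all tested rows. The median was -0.17 over 14 genes, beside 0.14 over all rows. Timp3, an inhibitor of matrix proteases, carried the authors' mark without being called, at 61.2 in incisor and 26.6 in molar (q = 0.0507 in the deposited table). Ctsl, a lysosomal cathepsin able to cut elastin, stood at 235 in molar and 72.8 in incisor (q = 0.0103 in the deposited table). Adamts10, a microfibril-binding member of the ADAMTS proteases, stood at 8.53 against 2.29 (q = 0.0229), and its relative Adamtsl4 at 2.96 against 0.110 (q = 0.000664 in the deposited table), again a molar value within the receptor range. The elastases Mmp12 (1.01 in incisor, 0.230 in molar) and Mmp9 (9.68 and 5.47) were not called, with q = 0.383 and q = 0.252 in the deposited table. No row was found for the symbol Adamtsl6, though the gene may stand under another name. Mmp7 was listed at 0 in both tissues and not tested.

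Of 8 tested genes for elastin receptors and matrix sensing, 1 was called in each direction, beside 11.9% of all tested rows toward molar and 4.28% toward incisor. The median was -0.55 over 7 genes, beside 0.14 over all rows. Neu1, the sialidase of the elastin receptor complex, was higher in molar at 15.2 against 4.93 (q = 0.00634 in the deposited table). Itgav, the integrin chain that binds fibrillin and latent TGF-beta, was higher in incisor at 3.34 against 0.850 (q = 0.0428 in that table). Its molar value lies within the range of the receptor genes above. Itgb1, a partner chain, was marked by the authors without being called, with 39.3 FPKM in incisor and 17.4 in molar (q = 0.0565 in the deposited table). Glb1, whose splice form is the elastin-binding protein and whose main product can cleave FDG, shares a row with Tmppe at 13.4 in incisor and 29.0 in molar (q = 0.124 in the deposited table).

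Of 13 tested inducers of elastic fibre and lysyl oxidase genes, 1 was called in each direction, beside the same shares of all rows, and the median was 0.02 over 12 genes, beside 0.14. Tgfb3, a TGF-beta ligand, was higher in incisor at 74.3 against 30.5 (q = 0.0386 in the deposited table). Snai2, a transcription factor of mesenchymal cells, was higher in molar at 41.8 against 6.85 (q = 0.000664 in that table). Tgfb1, another TGF-beta ligand, had the authors' mark without being called, with 0.181 FPKM in incisor and 2.57 in molar (q = 0.0565 in the deposited table). That molar value of Tgfb1 also lies within the range of the receptor genes above. Hif1a, known to induce Lox under low oxygen, did not pass (q = 0.253 in the deposited table), with 5.30 FPKM in incisor and 3.15 in molar. The molar value of Hif1a lies within that range too.

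Markers of the labelled mural cells and of other cell types are given as summed FPKM and as counts, to be read beside the 11.9% of all tested rows called toward molar and the 4.28% toward incisor. Pericyte markers summed to 692 FPKM in incisor and 451 in molar, with 3 of 10 called higher in incisor and 2 higher in molar, and smooth muscle markers to 1425 and 524, with 2 of 8 called each way. Fibroblast and pulp mesenchyme markers summed to 2911 in incisor and 4299 in molar, with 3 of 10 called higher in incisor and 1 higher in molar. Their median log2 difference was -0.41, toward incisor, opposite to the sum, and 4 of the 10 also stand in the gene lists above. Those of odontoblasts and osteoblasts summed to 245 and 204 (2 of 8 called higher in incisor and 1 in molar), and of periodontal ligament to 196 and 285 (3 of 5 tested called higher in incisor and 1 in molar). The periodontal ligament median was -2.09 over the 5 tested, again toward incisor and opposite to the sum. Of the 6 periodontal ligament markers, 1 also stands in the gene lists above. Dental epithelial markers summed to 23494 and 2634 (8 of 9 called higher in incisor), endothelial markers to 10.5 and 239 (7 of 8 called higher in molar), and macrophage markers to 5348 and 8016 (2 of 8 called higher in molar and 1 in incisor). Cldn5, an endothelial marker, was the single marker listed at 0, in incisor. The part of these cell types in the values of the 10 genes was not tested.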

How the data were processed

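RNA from sorted cells of molar and incisor pulp was sequenced, 2 libraries per tissue. Per the submitters' processing notes, the mm10 build was used, with HISAT2, Trim Galore and edgeR named in no stated role. Which program wrote the table, with which annotation and scaling, is not stated. Per the file headers, the authors computed the FPKM of each tissue, the log2 fold change, a signed test score, the p-value and the q-value. Tissues were tied to columns by the description labels. As values per library are not used here, no test was fitted: the text counts genes by the authors' q under 0.05.

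The members and gene lists were chosen with earlier results of these data known. All members and, in each list, all called genes are named. List medians used a pseudocount of 1 and a minimum of 1 FPKM in either tissue. Repeated symbols kept the row with the highest mean FPKM, and rows joining several genes were left out of lists. Starts were moved by 1 base to be 1-based. Exons and shared 32-base words came from GENCODE M21 (GRCm38, the mm10 assembly), using for each gene its longest transcript with a RefSeq mRNA. Python 3.11.15 and pandas 2.3.3 were used, and counting was tested on simulated data.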

Additional observations from a re-analysis of the deposited data

How the results depend on the processing

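The log2 folds of the 10 genes kept their direction in 47 of 50 values under other pseudocounts (1, 0.1 and 5) and scalings. The exceptions were Loxl1, at -0.12 after median centring and at -0.51 with equal FPKM totals, and Emilin1, at -0.36 with equal totals. This count is no measure of robustness, since an equal pseudocount cannot change a sign and both scalings move every fold toward incisor. Only Loxl1 and Emilin1, with the higher molar value, could change direction, and only under the scalings. Counting by unadjusted p under 0.05 gave 1 gene higher in incisor in place of 0, and the other thresholds and FPKM minimums gave 0. With a minimum of 5 FPKM, 2 scaffold genes in place of 4 were called higher in molar, 0 elastin receptor genes in place of 1 higher in incisor, and 2 turnover genes in place of 3 higher in molar, since fewer genes were counted. The median of the inducers turned to -0.068 with no minimum, -0.19 after centring and -0.54 with equal totals, and the other 33 of 36 list medians kept their sign. The scalings could only lower a median, and the medians of the other lists already lay toward incisor. No paired analysis was possible because the deposited table holds 1 combined value per tissue, and leaving out each library in turn was not run for the same reason. The read depth is unknown, so the precision of low values could not be computed.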
